A study of Mus musculus with 10 samples.

Results

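FOXP2 is a forkhead transcription factor best known for its role in speech and language, and it acts mainly as a repressor in the nervous system. Studies of neurons, neuronal cell lines, songbirds and other cells have named a small set of genes as regulated by it, among them secreted and membrane proteins of neuronal wiring and several transcription factors. The 10 genes taken from that literature are Srpx2, Met, Disc1, Mef2c, Robo1, Vldlr, Cntnap2, Slit1, Nr2f1 and Nr2f2. They were chosen by symbol from a list of reported targets, and 8 of them were followed here in a table of 18430 rows. Robo1 and Slit1 were not analysed here. All 8 reached 1 RPKM (reads scaled to transcript length and to the size of the library) in at least 2 libraries and were tested among 12842 rows that name a gene.

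The cells were NIH3T3, an established line of mouse embryo fibroblasts, sequenced as 10 libraries. There were 4 clones stably overexpressing FOXP2 and 4 clones stably overexpressing FOXP2-CPED1, which the series title calls a FOXP2 arrangement. The controls were 1 culture of parental cells and 1 culture stably overexpressing the vector, neither labelled with a FOXP2 construct. All arms derive from the same line. Every clone or control culture was sequenced as 1 library, and replicates of a construct are therefore different clones. Neither control is described as clonal, so cloning and construct cannot be told apart in a comparison with the controls. Which promoter drives the constructs, and from which species their coding sequence comes, is not given here. In bulk RNA, fewer cells with a transcript and less of it per cell cannot be told apart.

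Relative depth, read from the steps among values under 0.3 RPKM, lay between 0.913 and 1.32 of the parental library, and the absolute depth is unknown. The 2 mitochondrial rows were listed at 0 in 3 libraries, FOXP2 clones 2 and 4 and FOXP2-CPED1 clone 3. The mouse Foxp2 row stood at 0.145 to 1.02 RPKM in the FOXP2 clones, 0.0674 to 0.330 in the FOXP2-CPED1 clones and 0.0785 to 0.0798 in the controls; it may miss the introduced sequence, so it does not check the labels. Cped1 ranged from 6.43 to 31.0 RPKM in the FOXP2 clones, from 6.69 to 25.4 in the FOXP2-CPED1 clones and from 24.2 to 27.0 in the controls. The cells carried the marks of fibroblasts: 11 of 12 listed markers had a row and all of these were expressed, with a summed level of 6480 to 9183 RPKM in FOXP2 clones, 6839 to 9705 in FOXP2-CPED1 clones and 9626 to 9720 in the controls. Some single fibroblast markers varied more between libraries than this sum, such as Dcn at 34.8 to 342 RPKM and Pdgfra at 28.0 to 177. Col1a1 varied less, at 889 to 1239 RPKM. Of 10 neuronal markers only the vesicular glutamate transporter Slc17a7 had a row, at 1.80 to 10.03 RPKM over all libraries. Of 17 epithelial, endothelial and blood markers, 2 had a row, Cdh1 at 0.584 to 2.37 RPKM and Cdh5 at up to 0.536. A further 987 rows join several gene symbols and were not searched for single genes. A marker or other listed gene without a row of its own may therefore still be expressed. What part the lower fibroblast sum of some clones has in the results was not tested.

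On the scale of log2(RPKM + 1), Srpx2 and Mef2c are the genes whose clone means stood farthest from the controls. The stretches upstream of their transcription starts are shown for that reason. The Nr2f1 stretch is shown because it is the 1 place among the 8 genes with the letters TGTTTAC, a common forkhead recognition sequence. All are the 250 bases before a RefSeq start on GRCm38.p6, a later mouse build than mm9, which the submitters' processing notes name. They are written on the gene's own strand, and capitals mark a match on either strand to 1 of 4 motifs: the forkhead letters TGTTTAC, the sequence TATTTAT reported for FOXP2 in human cells, its variant with a G written TATTTGT, and the core reported for the FOXP2 forkhead domain, which is CAAATT. The Srpx2 stretch is chrX:133908175-133908424 on the plus strand, the Mef2c stretch, from the 1 of its 3 starts with a match, is chr13:83523406-83523655 on the plus strand, and the Nr2f1 stretch, before an inner start, is chr13:78196450-78196699 on the minus strand.
Srpx2: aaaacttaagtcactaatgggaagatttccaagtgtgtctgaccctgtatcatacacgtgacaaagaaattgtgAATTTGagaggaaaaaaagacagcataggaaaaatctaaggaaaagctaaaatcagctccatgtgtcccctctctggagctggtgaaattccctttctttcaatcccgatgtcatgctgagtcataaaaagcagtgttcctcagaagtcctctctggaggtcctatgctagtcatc
Mef2c: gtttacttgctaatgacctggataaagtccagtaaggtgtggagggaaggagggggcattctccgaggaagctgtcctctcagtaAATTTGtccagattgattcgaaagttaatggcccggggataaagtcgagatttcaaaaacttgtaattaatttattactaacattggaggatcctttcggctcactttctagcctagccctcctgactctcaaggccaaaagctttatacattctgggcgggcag
Nr2f1: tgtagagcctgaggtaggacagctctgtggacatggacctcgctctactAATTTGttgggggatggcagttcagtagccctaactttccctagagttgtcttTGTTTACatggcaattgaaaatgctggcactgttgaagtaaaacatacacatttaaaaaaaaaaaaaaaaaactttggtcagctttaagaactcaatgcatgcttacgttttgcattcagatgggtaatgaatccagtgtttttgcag

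In Srpx2 the capitals begin 176 bases before the start and are CAAATT read on the other strand. The same letters stand 165 bases before the Mef2c start and 201 bases before the Nr2f1 start, where TGTTTAC lies at 148 bases. Of 13 starts of the 8 genes, 3 held a match. Among 32851 mouse stretches of this length, 18.8% held at least 1 of the 4 motifs, with 3.17% for TGTTTAC, 5.17% for TATTTAT, 3.29% for TATTTGT and 9.80% for CAAATT. A match is a run of letters and no binding was measured.

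In these fibroblasts the genes lay between low and moderate levels. Nr2f2 was the highest at a mean of 55.0 RPKM over the 10 libraries, followed by Met at 15.6, Vldlr at 15.5 and Nr2f1 at 14.1. Those 3 neighbours had SDs of 4.02, 5.20 and 4.62 RPKM over the libraries, larger than the gaps between them. Srpx2 averaged 7.41 and Mef2c 4.54, while Cntnap2 and Disc1 were the lowest at 2.18 and 1.40. The annotation places Srpx2 on chromosome X, Met and Cntnap2 on 6, Disc1 on 8, Mef2c and Nr2f1 on 13, Vldlr on 19 and Nr2f2 on 7, and all 8 Ensembl identifiers matched their symbol.

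The first question was whether FOXP2 or FOXP2-CPED1 shifts these genes against the controls. Srpx2 was lower in all 8 clones than in either control, as were 6.38% of all tested rows. Mef2c was higher than both controls in 7 of 8 clones, for which the share over all rows was not computed. Neither gene passed the test. With limma, a linear model fitted across all rows on log2(RPKM + 1), 0 of the 8 genes passed an adjusted p of 0.05 (Benjamini-Hochberg) with FOXP2, against 0.436% of all tested rows. With FOXP2-CPED1 0 of 8 passed against 0.35% of rows, and between the constructs 0 of 8 passed against 0% of rows. At an unadjusted p under 0.05 the count was also 0 of 8 in each of the 3 comparisons, where 8.52%, 7.28% and 2.16% of rows reached it. Exact permutation tests gave 0 of 8 as well. With 15 arrangements of 4 clones and 2 controls the exact permutation p cannot go below 0.133. The comparison between constructs allows an exact permutation p as small as 0.0286. The 2 comparisons with the controls share those control libraries.

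**Figure D1:**
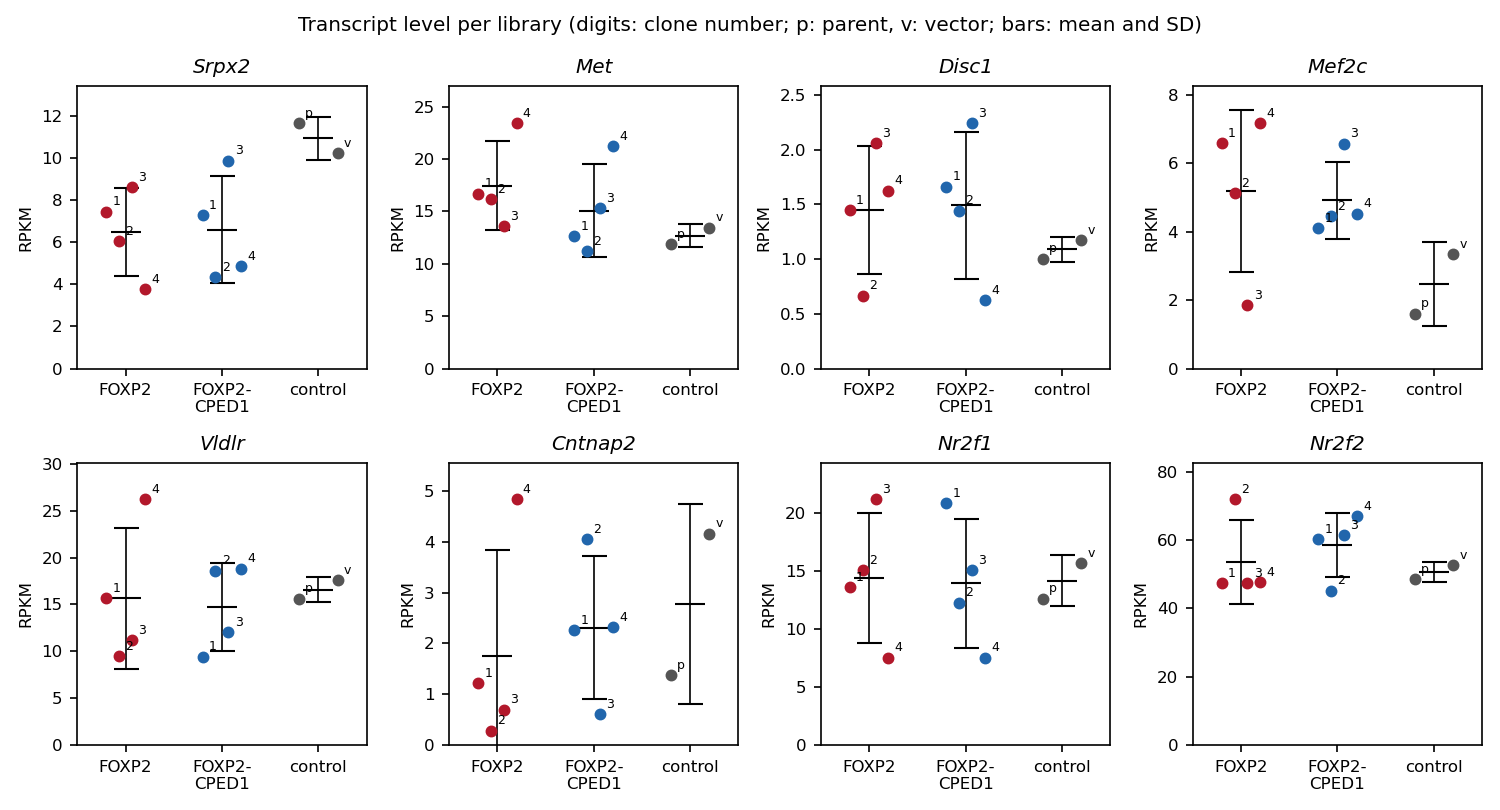
Transcript level in RPKM (vertical axes, each from 0) of the 8 genes in each library, grouped as FOXP2 clones, FOXP2-CPED1 clones and controls; points are libraries, bars are the mean and SD, and SD bars are cut at 0. All Srpx2 clone values, at most 9.87 RPKM, lie under both controls, at 10.2 and 11.7 RPKM.

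Srpx2 encodes a secreted sushi-domain protein that binds the urokinase receptor and promotes synapse formation in mouse cortex, and in human cells FOXP2 is reported to repress it. It stood at 7.45, 6.05, 8.62 and 3.78 RPKM in FOXP2 clones 1 to 4, at 7.29, 4.33, 9.87 and 4.86 RPKM in FOXP2-CPED1 clones 1 to 4, and at 11.7 in parental and 10.2 in vector cells. Each clone was under both controls, with FOXP2-CPED1 clone 3 the nearest and FOXP2 clone 4 the farthest. Means were 6.47 ± 2.08 RPKM with FOXP2 (SD, n = 4), 6.59 ± 2.54 with FOXP2-CPED1 (SD, n = 4) and 10.9 ± 1.02 in the controls (SD, n = 2). The log2 fold change was -0.72 ± 0.33 (SE) with FOXP2 (limma adjusted p = 0.595) and -0.71 ± 0.33 with FOXP2-CPED1 (adjusted p = 0.694). Separation in this direction is common in these data: FOXP2 clones lay wholly under the controls in 10.4% of rows and FOXP2-CPED1 clones in 13.3%, and Srpx2 was the 1 gene of 8 to do so in each. With the 3 libraries dropped in which mitochondrial rows were at 0, the log2 fold change was -0.40 with FOXP2 and -0.90 with FOXP2-CPED1.

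A comparison of all 8 clones with the 2 controls was added after the values were seen. Srpx2 had a log2 fold change of -0.72 ± 0.30 (limma adjusted p = 0.514) and an exact permutation p of 0.0444, which is the smallest that 45 arrangements allow. It was the 1 gene of 8 with an unadjusted p under 0.05 in this comparison, where 9.10% of rows had one. Of all rows, 6.38% lay wholly under the controls in the 8 clones and 5.44% wholly above, and no gene of the 8 lay wholly above. Here too 0 of 8 passed after adjustment, against 0.537% of rows.

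Met, the receptor tyrosine kinase for hepatocyte growth factor and a reported FOXP2-repressed gene of human neuronal cells, was expressed in every library. It stood at 16.7, 16.2, 13.6 and 23.5 RPKM in FOXP2 clones 1 to 4, at 12.6, 11.2, 15.3 and 21.2 in FOXP2-CPED1 clones 1 to 4, and at 11.9 in parental and 13.4 in vector cells. Clone 4 of each construct was the highest of its group, and the FOXP2 clones all lay above the controls, clone 3 only just (13.6 against 13.4 RPKM in vector cells). The log2 fold change was 0.41 ± 0.26 with FOXP2 (limma adjusted p = 0.738) and 0.20 ± 0.26 with FOXP2-CPED1 (adjusted p = 0.916). Of all rows, 9.13% lay wholly above the controls with FOXP2, and Met was the 1 gene of 8 to do so. The FOXP2-CPED1 clones overlapped the controls. Without FOXP2 clone 4 the log2 fold change with FOXP2 was 0.27, and with the 3 libraries dropped in which mitochondrial rows were at 0 it was 0.23. With FOXP2-CPED1 it was 0.031 without clone 4, 0.32 without clone 2 and 0.12 without the parental library.

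Vldlr is a lipoprotein receptor that also relays the reelin signal during neuronal migration, and it was reported as a FoxP2 target in songbirds. Its values were 15.7, 9.48, 11.2 and 26.2 RPKM in FOXP2 clones 1 to 4, 9.42, 18.6, 12.03 and 18.8 in FOXP2-CPED1 clones 1 to 4, and 15.6 and 17.6 in parental and vector cells. Clones of each construct stood on both sides of the controls. The log2 fold change was -0.18 ± 0.38 with FOXP2 (adjusted p = 0.937, limma) and -0.21 ± 0.38 with FOXP2-CPED1 (adjusted p = 0.944), with 95% intervals of -1.02 to 0.66 and -1.05 to 0.63.

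Cntnap2, a neurexin-related adhesion protein that clusters potassium channels on axons, is the reported FOXP2 target most often linked to language. It was low and uneven, at 1.22, 0.282, 0.698 and 4.84 RPKM in FOXP2 clones 1 to 4 and 2.26, 4.05, 0.604 and 2.32 in FOXP2-CPED1 clones 1 to 4, beside 1.38 in parental and 4.16 in vector cells. The highest library held 17.2 times the RPKM of the lowest, and the vector culture held 3.02 times the RPKM of the parent. The log2 fold change was -0.60 ± 0.61 with FOXP2 (adjusted p = 0.848, limma) and -0.19 ± 0.61 with FOXP2-CPED1 (adjusted p = 0.975). The interval with FOXP2 ran from -1.97 to 0.76, the widest of the 8 genes. The choice of control moved these values: without the vector library they were -0.045 with FOXP2 and 0.37 with FOXP2-CPED1, and without the parental library -1.16 and -0.75. With FOXP2 the value was -1.05 without clone 4 and -0.32 without clone 2. With FOXP2-CPED1 it was -0.44 without clone 2 and 0.12 without clone 3. At a pseudocount of 0.1 the values were -1.08 with FOXP2 and -0.31 with FOXP2-CPED1.

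Disc1, a scaffold of the centrosome and of neuronal signalling, had values of 1.45, 0.666, 2.06 and 1.63 RPKM in FOXP2 clones 1 to 4, 1.66, 1.44, 2.25 and 0.625 in FOXP2-CPED1 clones 1 to 4, and 1.01 and 1.17 in parental and vector cells. In each construct 3 clones stood above both controls and 1 stood below. The log2 fold change was 0.20 ± 0.31 with FOXP2 (adjusted p = 0.906, limma) and 0.21 ± 0.31 with FOXP2-CPED1 (adjusted p = 0.924). With FOXP2 the value was 0.37 without clone 2, 0.39 with the 3 libraries dropped in which mitochondrial rows were at 0, and 0.080 without clone 3, and with FOXP2-CPED1 it was 0.073 without clone 3 and 0.41 without clone 4. The symbol has 2 rows in the table, and the one with the higher mean is given.

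**Figure D2:**
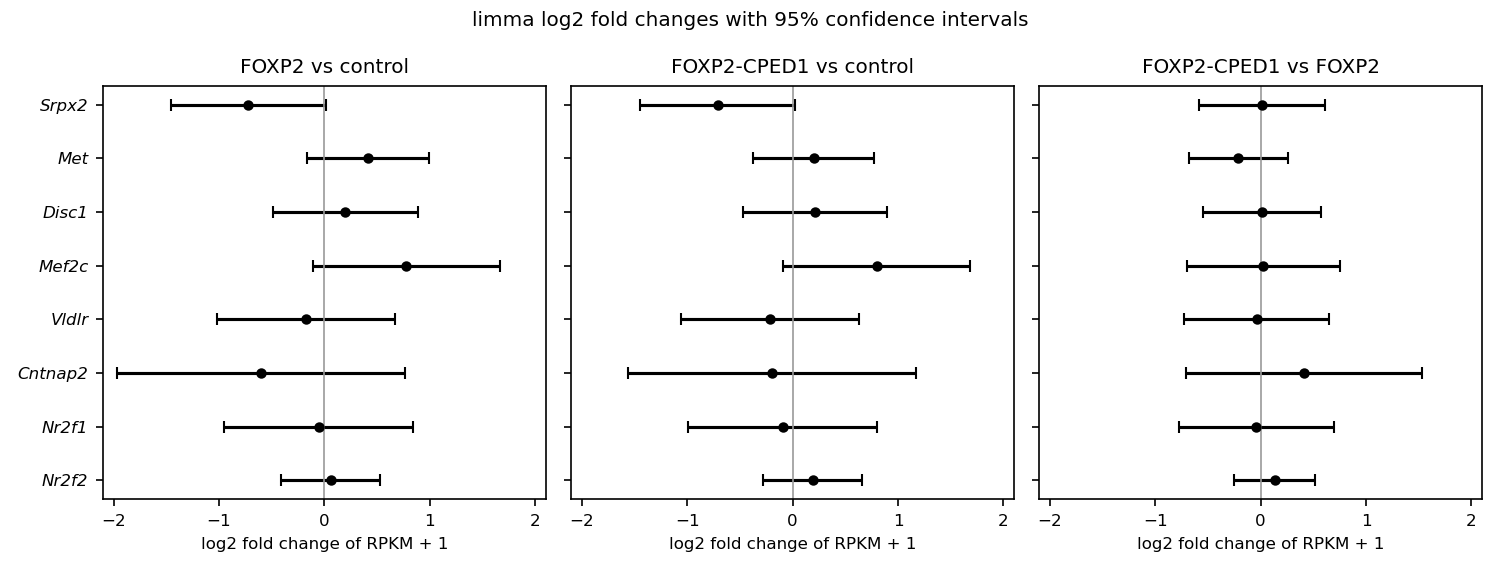
Log2 fold changes on the log2(RPKM + 1) scale (horizontal axes) of the 8 genes in 3 comparisons; points are limma estimates and bars 95% confidence intervals. Every interval includes 0, that of Srpx2 most narrowly, from -1.45 to 0.012 with FOXP2 and from -1.44 to 0.022 with FOXP2-CPED1.

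Among the transcription factors, Mef2c had the largest log2 fold changes. It is a MADS-box factor of muscle and neurons that limits synapse number and that Foxp2 represses in mouse striatum. It stood at 6.59, 5.13, 1.87 and 7.19 RPKM in FOXP2 clones 1 to 4, at 4.102, 4.46, 6.58 and 4.53 in FOXP2-CPED1 clones 1 to 4, and at 1.60 in parental and 3.34 in vector cells. The FOXP2-CPED1 clones all lay above both controls, as 12.2% of rows did, and Mef2c was the 1 gene of 8 to do so. With FOXP2, clone 3 fell between parent and vector. The means were 5.19 ± 2.38 RPKM with FOXP2, 4.92 ± 1.12 with FOXP2-CPED1 (SD, n = 4 each) and 2.47 ± 1.23 in the controls (SD, n = 2). The log2 fold change was 0.77 ± 0.40 with FOXP2 (limma adjusted p = 0.672) and 0.80 ± 0.40 with FOXP2-CPED1 (adjusted p = 0.728). Vector cells held 2.08 times the RPKM of parental cells, and without the vector library the log2 fold changes were 1.14 and 1.17, against 0.41 and 0.43 without the parental library. With the 3 libraries dropped in which mitochondrial rows were at 0, the log2 fold change with FOXP2 was 0.47. With library quality weights Mef2c passed with FOXP2 (log2 fold change 1.11, limma adjusted p = 0.0160), a setting under which 2095 rows passed in place of 56.

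Nr2f1 and Nr2f2 encode the COUP-TFI and COUP-TFII nuclear receptors, paralogs that pattern the cortex and other organs. Nr2f1 stood at 13.6, 15.1, 21.2 and 7.53 RPKM in FOXP2 clones 1 to 4, at 20.9, 12.3, 15.1 and 7.53 in FOXP2-CPED1 clones 1 to 4, and at 12.6 and 15.7 in parental and vector cells. Clone 4 of each construct was the lowest, while FOXP2 clone 3 and FOXP2-CPED1 clone 1 were the highest. Its log2 fold changes were -0.05 ± 0.40 with FOXP2 and -0.09 ± 0.40 with FOXP2-CPED1 (limma adjusted p = 0.986 and 0.984). Nr2f2 was the steadiest of the 8 genes, with 47.3, 71.9, 47.4 and 47.8 RPKM in FOXP2 clones 1 to 4, 60.3, 45.2, 61.4 and 67.0 in FOXP2-CPED1 clones 1 to 4, and 48.5 and 52.8 in parental and vector cells. FOXP2 clone 2 stood apart from the other FOXP2 clones, which lay within 1 RPKM of each other. Its log2 fold changes were 0.06 ± 0.21 with FOXP2 and 0.19 ± 0.21 with FOXP2-CPED1 (limma adjusted p = 0.970 and 0.898). Both genes share exons with a gene on the opposite strand, A830082K12Rik at 2.70 to 8.84 RPKM and B130024G19Rik at 0.720 to 2.15 RPKM. How the counting treated strand is not given, so reads of these pairs may not be told apart, and reads may also be shared between the paralogs.

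The second question was whether the constructs differ from each other. None of the 8 genes had FOXP2-CPED1 clones wholly apart from the FOXP2 clones, against 1.38% of all rows. Log2 differences, FOXP2-CPED1 minus FOXP2, ran from -0.21 ± 0.21 for Met to 0.41 ± 0.50 for Cntnap2 (limma adjusted p = 0.99984 for each of the 8). Exact permutation p-values lay between 0.400 for Met and 1 for Srpx2 and Mef2c. The 95% intervals were -0.59 to 0.61 for Srpx2, -0.68 to 0.26 for Met, -0.54 to 0.58 for Disc1, -0.70 to 0.75 for Mef2c, -0.72 to 0.65 for Vldlr, -0.71 to 1.53 for Cntnap2, -0.77 to 0.69 for Nr2f1 and -0.25 to 0.51 for Nr2f2. Differences of the sizes inside these intervals are not excluded by 4 clones of each construct.

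**Figure D3:**
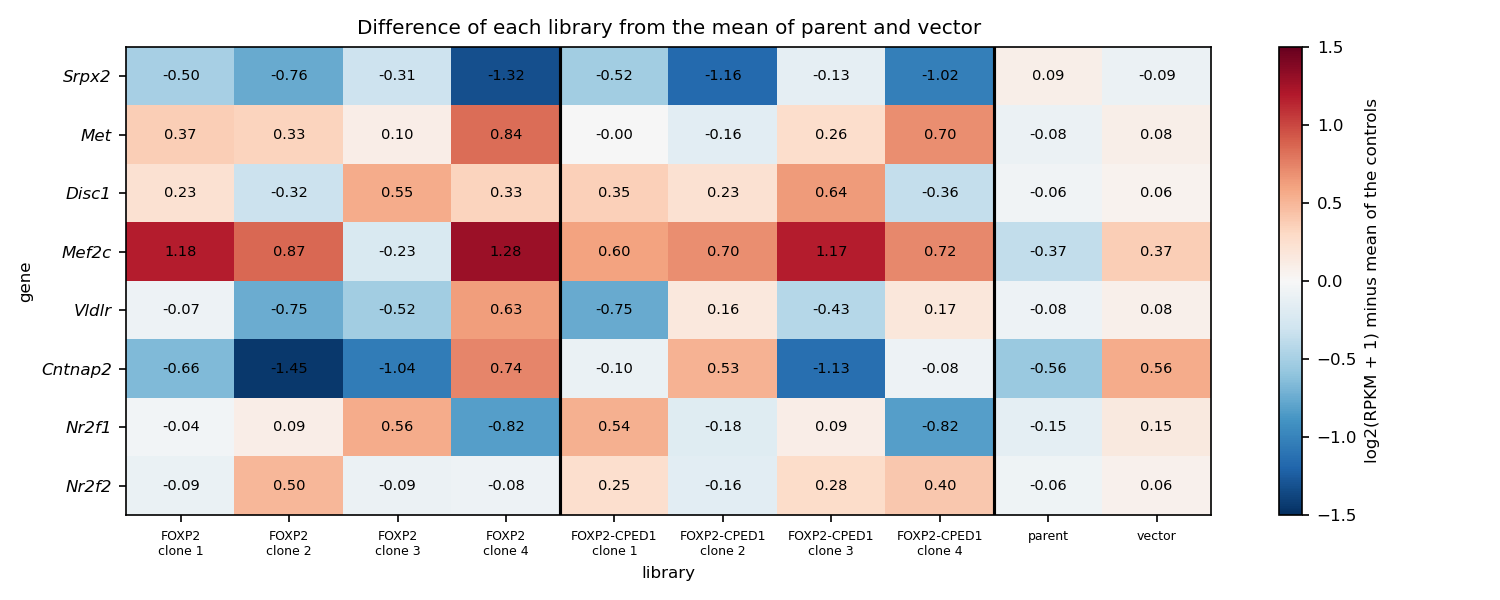
Difference of log2(RPKM + 1) in each library (columns, FOXP2 clones, FOXP2-CPED1 clones, then parent and vector) from the mean of the 2 controls, for the 8 genes (rows); red is higher and blue lower, with the value in each cell. Clone 4 of either construct pairs low Srpx2 (-1.32 and -1.02) and low Nr2f1 (-0.82 and -0.82) with high Met (0.84 and 0.70). FOXP2-CPED1 clone 2 goes the other way, with low Srpx2 (-1.16) beside the lowest Met (-0.16).

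Clones of 1 construct differed among themselves in most of these genes. FOXP2 clone 4 held the highest of the 10 values for 4 genes (Met, Mef2c, Vldlr and Cntnap2) and the lowest for 2 (Srpx2 and Nr2f1). FOXP2-CPED1 clone 4 was near it in Srpx2, Met and Nr2f1, with 4.86, 21.2 and 7.53 RPKM. It was lower in Disc1, where it had the lowest value of all, and in Mef2c, Vldlr and Cntnap2, and higher in Nr2f2. FOXP2 clone 3 had the highest Nr2f1 and the lowest Mef2c of the clones. The 2 clones that share the number 4 have only that number in common per the labels. Over 12842 rows their deviations from their group means correlated at 0.17. FOXP2-CPED1 clone 4 correlated best with FOXP2 clone 2, at 0.39. FOXP2 clone 4 is also a library with mitochondrial rows at 0, and the part of this in its values was not tested.

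Measured as the SD of log2(RPKM + 1) over the 8 clones, the spread of Cntnap2 was 0.80, larger than that of 95.9% of tested rows. Nr2f1 (0.53), Vldlr (0.50), Mef2c (0.48) and Srpx2 (0.42) exceeded 86.9%, 84.8%, 83.6% and 77.8% of rows. Disc1 (0.37) and Met (0.34) exceeded 70.0% and 65.2%, and Nr2f2 (0.26) exceeded 45.6%, just under the median row at 0.28. The SD depends on the level of a gene on this scale, which was not adjusted for.

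**Figure D4:**
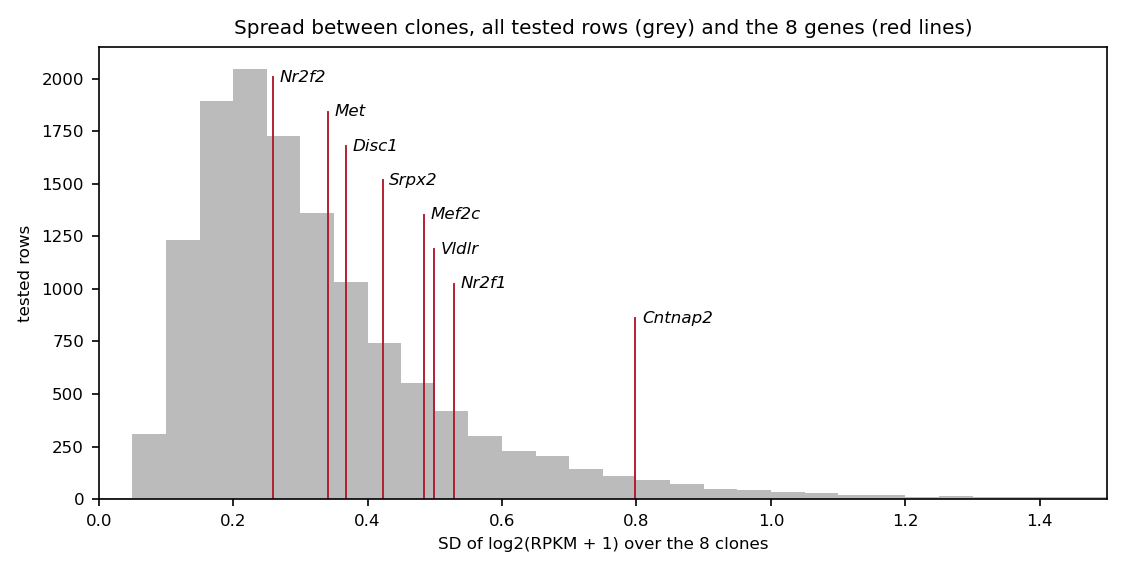
Number of tested rows (vertical axis) by the SD of log2(RPKM + 1) over the 8 clones (horizontal axis, shown up to 1.5); red lines mark the 8 genes. Of the 8 genes, 7 lie to the right of the median of 0.28, with Cntnap2 the farthest at 0.80.

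For each gene whose highest library was at least 2 times its lowest, the 3 single-gene rows with the most similar pattern over the 10 libraries were taken by Pearson's r, from 11556 rows. They were BC024978, Gpr107 and RP24-75N6.3 for Srpx2 (r = 0.909 to 0.904), Efcab14, Epn3 and Ttc21b for Met (0.960 to 0.947) and Slc8b1, Kmt2e and AA474331 for Disc1 (0.977 to 0.959). For Mef2c they were Idi1, Msmo1 and Hsd17b7 (0.931 to 0.911), with Idi1 at 12.6 to 56.6 RPKM. Vldlr was most like Smap1, Atp11a and Col5a2 (0.980 to 0.955), Nr2f1 most like Il16, Mesdc1 and Cmtm3 (0.967 to 0.963), and Cntnap2 most like Arel1, Gm5582 and Zfp689 (0.877 to 0.864). These are the top values of a search over many rows with 10 points each and carry no test.

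The partners of these genes were then read from 10 lists, which held 72 further tested genes. The 72 leave out the described genes, whereas the count of tested genes and the median given for a single list include them. With FOXP2 1 of the 72 (1.39%) passed the limma threshold, downwards, against 0.436% of all rows, and with FOXP2-CPED1 0 passed, against 0.35%. At an unadjusted p under 0.05 there were 8 and 9 of the 72, where 8.52% and 7.28% of all rows had one. The median log2 fold change of the 72 was -0.017 with FOXP2 and -0.016 with FOXP2-CPED1, beside 0.016 and 0.0016 over all rows.

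The 1 that passed was Plau, the urokinase plasminogen activator whose receptor Srpx2 binds. It stood at 2.84, 6.63, 4.25 and 3.61 RPKM in FOXP2 clones 1 to 4, at 4.604, 5.69, 4.80 and 17.9 in FOXP2-CPED1 clones 1 to 4, and at 31.6 and 32.6 in parental and vector cells. All 8 clones were below both controls, as in 6.38% of all rows, with FOXP2-CPED1 clone 4 the highest of them. Plau fell with FOXP2 by 2.68 ± 0.46 on the log2 scale (limma adjusted p = 0.0401) and had a log2 fold change of -2.05 ± 0.46 with FOXP2-CPED1 (adjusted p = 0.142). The call with FOXP2 was lost in 9 of 10 fits that left out 1 library (adjusted p = 0.0515 to 0.458) and held without FOXP2-CPED1 clone 4 (adjusted p = 0.00398), while the log2 fold change stayed between -2.87 and -2.54. It was also lost with the 3 libraries dropped in which mitochondrial rows were at 0 (limma adjusted p = 0.178), and at pseudocounts of 0.1 and 0.25 (limma adjusted p = 0.0546 and 0.0530). With FOXP2-CPED1, Plau passed once its clone 4 was left out (limma adjusted p = 0.00956).

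The same list, of the urokinase receptor system, held 7 tested genes, Srpx2 among them. Plaur, the urokinase receptor itself and a further reported FOXP2 target, had 26.1, 74.1, 11.8 and 31.1 RPKM in FOXP2 clones 1 to 4, 20.2, 19.7, 15.3 and 54.4 in FOXP2-CPED1 clones 1 to 4, and 106.9 and 104.8 in parental and vector cells. Every clone was under both controls, as in 6.38% of all rows, and the highest of each construct, FOXP2 clone 2 and FOXP2-CPED1 clone 4, stood well above the others. Its log2 fold changes were -1.82 ± 0.63 and -2.09 ± 0.63 (limma adjusted p = 0.388 and 0.371). The cathepsin Ctsb averaged 241.6 ± 142.5 RPKM with FOXP2, 260.0 ± 81.7 with FOXP2-CPED1 (SD, n = 4 each) and 174.5 ± 2.63 in the controls (SD, n = 2). The list's median was -0.72 with FOXP2, where 1 fell, and -0.71 with FOXP2-CPED1, where 0 passed. In both comparisons this median is the value of Srpx2 itself, so it is no separate reading of its partners.

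**Figure D5:**
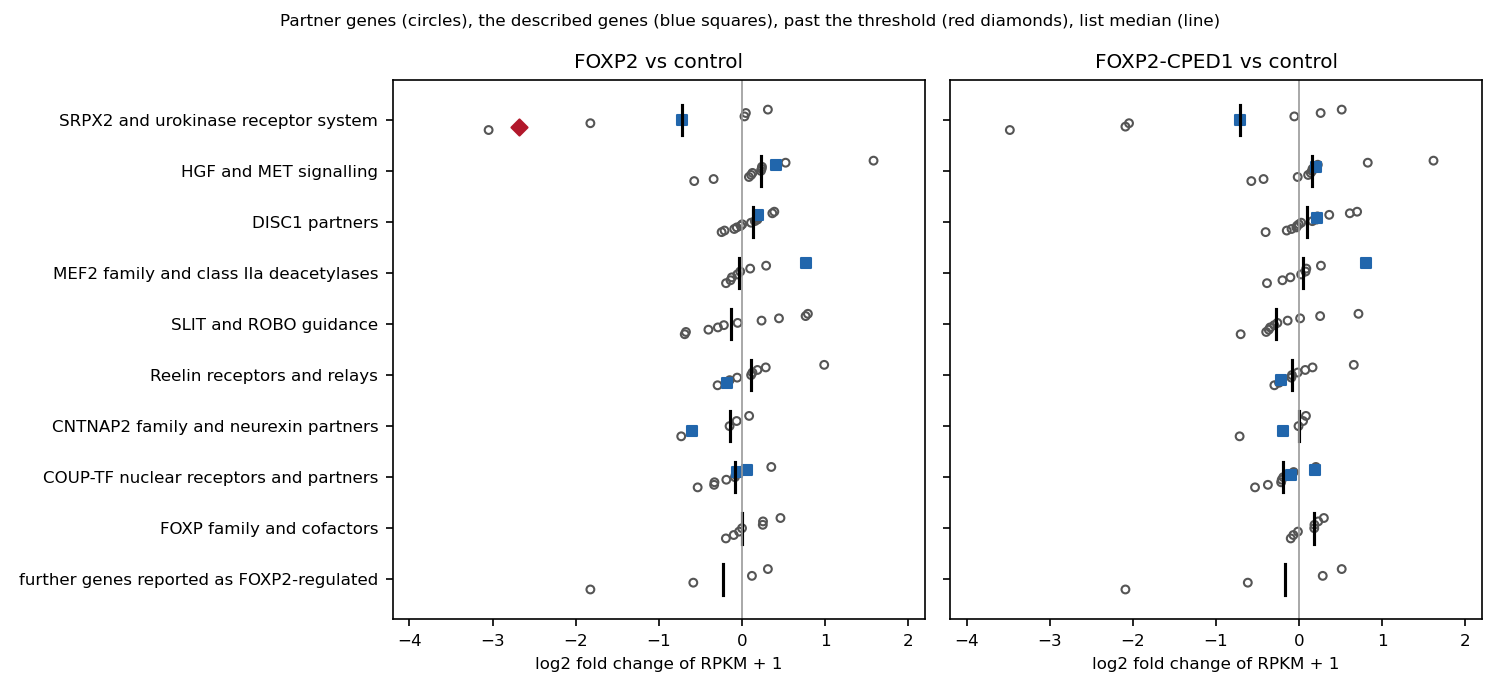
Log2 fold changes on the log2(RPKM + 1) scale (horizontal axes) of tested genes in 10 partner lists (rows) with FOXP2 (left) and FOXP2-CPED1 (right) against the controls; circles are partner genes, blue squares the described genes, red diamonds genes past the threshold and lines list medians. The single diamond is Plau at -2.68 with FOXP2.

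Signalling by Met was represented by 11 tested genes, Met included, with 0 passing and medians of 0.23 with FOXP2 and 0.16 with FOXP2-CPED1. The adaptor Grb2 averaged 81.0 ± 16.8, 79.4 ± 9.25 and 67.8 ± 10.3 RPKM in FOXP2 clones, FOXP2-CPED1 clones and controls, the adaptor Crk 68.1 ± 5.30, 70.0 ± 8.93 and 62.1 ± 1.01, and the phosphatase Ptpn11 58.3 ± 3.60, 54.9 ± 4.79 and 49.1 ± 2.06. Hgf, the ligand of Met, was named after its values were seen. It stood at 4.15, 4.00, 37.4 and 0.423 RPKM in FOXP2 clones 1 to 4, at 21.2, 2.17, 11.6 and 0.745 in FOXP2-CPED1 clones 1 to 4, and at 1.17 and 0.926 in parental and vector cells. Clone 4 of either construct had the least Hgf and the most Met of its group. FOXP2-CPED1 clone 2, next lowest in Hgf of its group, had the least Met of that group, at 11.2 RPKM. The relation of Hgf and Met was not tested. The log2 fold changes of Hgf were 1.58 ± 1.24 and 1.62 ± 1.24 (limma adjusted p = 0.807 and 0.854).

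Among guidance and reelin genes 0 passed in either comparison. The 10 tested SLIT and ROBO genes had medians of -0.13 with FOXP2 and -0.28 with FOXP2-CPED1, and the heparan sulphate proteoglycan Sdc1 averaged 100.8 ± 52.7 RPKM with FOXP2, 102.7 ± 17.6 with FOXP2-CPED1 and 122.1 ± 3.55 in the controls. The ligand Slit2, also named after its values were seen, stood at 21.7, 29.8, 28.6 and 6.74 RPKM in FOXP2 clones 1 to 4, at 23.8, 15.9, 18.6 and 15.9 in FOXP2-CPED1 clones 1 to 4, and at 10.8 and 10.7 in parental and vector cells. All clones but FOXP2 clone 4 were above the controls. FOXP2-CPED1 clones lay wholly above, as in 12.2% of all rows, with adjusted p = 0.727 and 0.831 by limma. The 9 reelin receptor and relay genes had medians of 0.11 and -0.09. Lrp8, the receptor that acts beside Vldlr and was likewise chosen after its values were seen, averaged 13.6 ± 5.21, 10.5 ± 4.36 and 5.98 ± 1.41 RPKM (limma adjusted p = 0.518 with FOXP2 and 0.804 with FOXP2-CPED1).

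The remaining lists held no gene past the threshold in either comparison with the controls. DISC1 partners (14 tested) had medians of 0.13 with FOXP2 and 0.09 with FOXP2-CPED1. Their highest members were the exchange factor Kalrn at 651.6 ± 113.0, 558.0 ± 83.0 and 573.0 ± 122.5 RPKM in FOXP2 clones, FOXP2-CPED1 clones and controls, the dynein regulator Pafah1b1 at 62.9 ± 7.74, 56.2 ± 9.54 and 47.5 ± 3.57, and Nde1 at 43.3 ± 8.69, 44.9 ± 7.28 and 49.5 ± 0.752. Exons shared with other genes were looked up for the 8 described genes only, so the Kalrn row may hold reads of another gene. The MEF2 family and its deacetylases (8 tested) had medians of -0.04 and 0.05. The deacetylase Hdac5 averaged 70.2 ± 12.6, 71.5 ± 27.0 and 56.4 ± 0.988 RPKM. Of the paralogs of Mef2c, named after their values were seen, Mef2a averaged 18.5 ± 8.07, 17.0 ± 3.10 and 18.1 ± 1.48 RPKM and Mef2d 38.4 ± 5.12, 33.5 ± 5.44 and 43.7 ± 1.19. COUP-TF receptors and partners (9 tested) had medians of -0.08 and -0.19, with the corepressor Ncor1 at 82.6 ± 20.2, 75.2 ± 9.93 and 85.6 ± 8.82 RPKM. The CNTNAP2 family and neurexin partners (5 tested) had medians of -0.15 and -0.0075, with Epb41l3, a membrane skeleton protein, at 46.7 ± 5.33, 48.5 ± 4.06 and 48.6 ± 0.855 RPKM. The FOXP family and its cofactors (7 tested) had medians of 0.0017 and 0.18, with the corepressor Ctbp1 at 119.6 ± 22.4, 106.0 ± 14.3 and 85.4 ± 3.49 RPKM and the paralog Foxp4, named after its values were seen, at 21.96 ± 1.045, 23.5 ± 3.08 and 23.6 ± 0.506. Of 16 further genes reported as FOXP2-regulated, 4 were tested and 0 passed. Beside Plaur and Ctsb these were the podoplanin gene Pdpn, at 32.6 ± 16.1, 34.0 ± 8.49 and 27.1 ± 0.717 RPKM, and the neuritin gene Nrn1, at 19.9 ± 7.27, 18.8 ± 5.27 and 28.5 ± 0.399 RPKM.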

How the data were processed

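RNA of 10 NIH3T3 cultures was sequenced after Trizol extraction and NEBNext Ultra library preparation, per the labels' protocols. The authors deposited 1 table of RPKM values with a column per library. HISAT2, StringTie and mm9 are named in the submitters' processing notes; their versions, the annotation and the strand setting are not given here. Every row reached 0.5 RPKM in at least 1 library. Rows that name no gene (3581, with 3.37 to 4.54% of summed RPKM) were left out. Where a symbol had several rows, the one with the highest mean was used.

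RPKM values are not counts, so limma 3.58.1 in R 4.3.3 was fitted on log2(RPKM + 1), a scale that understates changes of low genes, over 12842 rows with at least 1 RPKM in at least 2 libraries, in 3 arms with a trend. Benjamini-Hochberg adjustment ran over all rows, with a threshold of 0.05, two-sided. The script was checked on simulated data. Exact permutation tests (two-sided, the smaller tail doubled) used SciPy 1.17.1. A p-value here reflects variation among these 10 cultures only. The members and lists were chosen with earlier results of these data known. Partner genes named are those past the threshold, otherwise up to 3 of the highest mean in a list, and others as stated; not all of them are given, and some are not reported here. Alternatives were 2 other pseudocounts, other filters, quantile and median-ratio scaling, no trend, quality weights, summed rows, only the compared arms, a clone-number block and leaving out libraries. Absolute depth is unknown.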

Additional observations from a re-analysis of the deposited data

Results flagged for a closer look

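Of 16 groups of 4 clones examined, 1 held a library far from the others: Nr2f2 in FOXP2 clone 2 stood at 71.9 RPKM, while the other FOXP2 clones lay between 47.3 and 47.8. Chance flags about 1 in 20 such groups. That clone is 1 of the 3 libraries whose mitochondrial rows were listed at 0, and the part of this in the value was not tested. Nr2f2 had 47.8 RPKM in FOXP2 clone 4 and 61.4 RPKM in FOXP2-CPED1 clone 3, the other libraries of that kind.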

How the results depend on the processing

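In all alternatives run, 0 of the 8 genes passed in any comparison, except that 1 (Mef2c with FOXP2, log2 fold change 1.11) passed with library quality weights. The count over all rows with FOXP2 was 56 and ran from 2 (without the parental library) to 2095 (quality weights), with 37 at a pseudocount of 0.1, 23 when the 3 libraries with mitochondrial rows at 0 were dropped and 9 when the fit held just FOXP2 and control libraries. With FOXP2-CPED1 it was 45 and ran from 0 (without the parental library) to 929 (quality weights), with 28 at a pseudocount of 0.1, between constructs from 0 to 4, and for all 8 clones from 2 to 82. Disc1, Mef2c and Cntnap2 were not tested under a filter on a mean of 5 RPKM. Of 591 values of the 8 genes under alternatives, 550 kept direction and side of the threshold, 1 became called and 40 changed sign, all of differences within their standard error in the full fit.

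When the libraries with mitochondrial rows at 0 were dropped, the sign turned for Cntnap2 (0.12) with FOXP2-CPED1, for Nr2f1 (0.26) and Nr2f2 (-0.093) with FOXP2, for Nr2f1 in all 8 clones (0.050), and between constructs for Srpx2 (-0.50), Disc1 (-0.32) and Vldlr (0.16). With quality weights it turned for Nr2f2 with FOXP2 (-0.078), Nr2f1 with FOXP2-CPED1 (0.088) and between constructs (0.16), and Mef2c between constructs (-0.23), and under quantile normalization for Disc1 between constructs (-0.031). Leaving out 1 library gave, where signs turned, -0.75 to 0.37 for Cntnap2 with FOXP2-CPED1 and -0.96 to 0.16 for all clones. For Nr2f1 it gave -0.26 to 0.20 with FOXP2, -0.30 to 0.15 with FOXP2-CPED1, -0.22 to 0.074 for all clones and -0.30 to 0.20 between constructs. Nr2f2 ranged from -0.089 to 0.12 and Vldlr from -0.45 to 0.012 with FOXP2. Between constructs the ranges were -0.19 to 0.16 for Srpx2, -0.16 to 0.21 for Disc1, -0.31 to 0.19 for Mef2c and -0.22 to 0.23 for Vldlr. Without a change of sign, the ranges with FOXP2-CPED1 were -0.34 to -0.032 for Vldlr and 0.12 to 0.31 for Nr2f2, and between constructs 0.13 to 0.86 for Cntnap2, -0.38 to -0.068 for Met and 0.064 to 0.28 for Nr2f2. The cause was not tested.

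With clone number as a replicate block in the 8 clones, 0 of 8 genes and 0 rows passed between constructs. Deviations of same-numbered clones correlated at -0.036, -0.24, 0.28 and 0.17, and not every clone correlated best with its own number, so the numbers were not taken to pair the clones. The comparison of all 8 clones was chosen after seeing the data. The counts behind each RPKM are unknown, so what depth limits could not be tested.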
